A study of Mus musculus with 2040 samples.

Results

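The Irx, Zic and En genes encode transcription factors that divide the embryonic brain into territories, and 10 of them were followed here across single cells sorted from adult mouse brain: Irx1, Irx2, Irx3, Irx5, Zic1, Zic2, Zic4, Zic5, En1 and En2. They were taken by name from the 32245 gene columns of the deposited cell-by-gene table. The study sorted single SYFP2-positive cells, 1 cell to a tube, and prepared a SMARTer v4 library from each cell. The 47 C57Bl/6J mice had each received 1 of 30 SYFP2 viral vectors. These vectors are labelled by an enhancer or, as with MBP_promoter in VISp, by a promoter. The cells came from primary visual cortex (VISp, 1785 cells of 41 mice), from midbrain and hindbrain as a single dissection (MB/HB, 174 cells of 4 mice) and from cerebellar cortex (CBX, 81 cells of 2 mice). Both CBX mice carried vector eHGT_375m. In MB/HB, mice MouseID-615516 and MouseID-651222 carried eHGT_381h, and mice MouseID-651228 and MouseID-651229 carried MGT_E160m. Every group carried a reporter vector and no labelled mutant allele, and the labels used here give no age. Each vector was used in a single tissue, so tissue and vector cannot be told apart. Every group holds only those cells in which its vector drove enough SYFP2 to be sorted.

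The Iroquois (Irx) factors are homeodomain proteins of the TALE class, encoded in genomic clusters, and in the embryo they pattern the neural plate behind the forebrain. The Zic factors are zinc finger proteins related to the Gli effectors of Hedgehog signalling. They act in the dorsal neural tube and in the growth of the cerebellum, where Zic1 and Zic4 are needed together for normal foliation. The Engrailed factors En1 and En2 are homeodomain repressors that set up the border of midbrain and hindbrain, from which much of the cerebellum and tectum grows. Hox genes, by contrast, mark the hindbrain behind the most anterior segment and the spinal cord.

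Several members lie close together in the genome (GENCODE vM21 on mm10, 1-based), and this bears on how reads could be assigned. Zic1 (chr9:91358058-91365810, minus strand) and Zic4 (chr9:91362413-91389348, plus strand) run away from each other and share 3398 bases, of which 60 are exonic in both. Zic5 (chr14:122456795-122465677, minus strand) and Zic2 (chr14:122475435-122479852, plus strand) are also divergent, with 9757 bases between them. Irx3 (chr8:91798525-91802067, minus strand) and Irx5 (chr8:92357625-92376286, plus strand) belong to 1 cluster, and Irx1 (chr13:71957921-71963723, minus strand) and Irx2 (chr13:72628820-72634198, plus strand) to the other. En1 (chr1:120602418-120607992, plus strand) and En2 (chr5:28165694-28172166, plus strand) are on separate chromosomes. The strand setting of the counting is not given in the sources used here, so reads from the stretches that Zic1 shares with Zic4, and Irx3 with its antisense transcript Irx3os, cannot be told apart.

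Promoter windows from RefSeq (GRCm38.p6, 250 bases before to 50 bases after the annotated start) matched 6 of the 10 members: Irx2, Irx3, Zic1, Zic4, Zic5 and En1. Irx1, Irx5, Zic2 and En2 are named only. The 4 windows below are shown because their genes stand for the ways in which members were spread over the tissues: Zic1 and Zic4 were high in CBX, Zic5 was high in CBX and VISp, and Irx3 was read in CBX and MB/HB. They are written 5′ to 3′ on the strand of the gene, with every CpG in capitals. Their positions are chr9:91365719-91366018 (minus strand) for Zic1, chr9:91368722-91369021 (plus strand) for Zic4, chr14:122465609-122465908 (minus strand) for Zic5 and chr8:91801605-91801904 (minus strand) for Irx3.
Zic1: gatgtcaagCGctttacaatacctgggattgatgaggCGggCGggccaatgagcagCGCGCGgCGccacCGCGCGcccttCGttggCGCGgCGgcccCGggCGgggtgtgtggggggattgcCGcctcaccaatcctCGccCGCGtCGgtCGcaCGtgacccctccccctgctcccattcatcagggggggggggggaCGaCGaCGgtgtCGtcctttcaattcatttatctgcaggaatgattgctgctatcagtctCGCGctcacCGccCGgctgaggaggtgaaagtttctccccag
Zic4: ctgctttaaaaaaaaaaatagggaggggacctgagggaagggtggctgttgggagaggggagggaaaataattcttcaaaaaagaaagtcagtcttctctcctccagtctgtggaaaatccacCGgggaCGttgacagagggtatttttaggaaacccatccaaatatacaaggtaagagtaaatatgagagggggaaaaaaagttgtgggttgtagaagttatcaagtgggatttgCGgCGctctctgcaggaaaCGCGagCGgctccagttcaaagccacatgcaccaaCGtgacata
Zic5: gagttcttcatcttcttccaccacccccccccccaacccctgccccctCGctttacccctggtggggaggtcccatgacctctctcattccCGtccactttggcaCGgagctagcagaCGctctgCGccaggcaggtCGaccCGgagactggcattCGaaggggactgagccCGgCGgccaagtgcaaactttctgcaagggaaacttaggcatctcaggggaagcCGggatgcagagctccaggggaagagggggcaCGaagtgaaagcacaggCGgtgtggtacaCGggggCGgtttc
Irx3: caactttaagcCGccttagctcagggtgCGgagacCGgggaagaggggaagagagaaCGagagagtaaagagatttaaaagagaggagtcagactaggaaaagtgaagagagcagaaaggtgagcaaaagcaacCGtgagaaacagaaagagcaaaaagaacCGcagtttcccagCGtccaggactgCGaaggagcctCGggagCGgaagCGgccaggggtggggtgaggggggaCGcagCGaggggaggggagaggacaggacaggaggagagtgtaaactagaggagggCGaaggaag
Zic1 has 31 CpGs in its window, against a median of 7 over 32851 promoter windows of the same length. The Zic5 window holds 15, that of Irx3 14 and that of Zic4 8, so the windows of the divergent neighbours Zic1 and Zic4 differ in CpG number. The annotated RefSeq start of Zic4 lies inside the gene as GENCODE draws it. None of the 6 windows held, on either strand, the GLI-type word TGGGTGGTC (in 0.253% of all windows), the homeodomain core TAATTA (5.29%), the Iroquois-type palindrome ACANNTGT (7.38%) or TATAAA (13.6%), and a missing word says only that these letters are not in the window.

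The values are reads of a gene per 1000000 reads (CPM) in each cell, from a median of 434102 reads and 4436 genes per cell. Clusters were made without the members and without the other patterning genes listed here, and were named from marker lists. The astrocyte-like class held 81 CBX, 148 MB/HB and 739 VISp cells, and in each tissue all 12 astrocyte markers were read in at least 50% of the cells of every mouse. The CBX cells also carried the Bergmann glia list (7 of 7 markers in at least 50% of cells, summed 17800 to 18039 CPM, against 1082 to 3822 in MB/HB and 700 to 1381 in VISp mice). In cluster terms, 79 of the CBX cells fell in cluster 9, 140 of the MB/HB cells in cluster 5, and VISp cells mainly in clusters 1 and 4. No cell repeated another's reads, and no identifier occurred more than once. RNA of other types moved with tissue. The summed oligodendrocyte list (12 markers) was 1923 to 2196 CPM in CBX (Cldn11, Ugt8a and Gjb1 at 0), 793 to 6157 in MB/HB and 171 to 1272 in VISp mice, and the meningeal fibroblast list (7 markers) was 49.2 to 59.4 (Lum, Col3a1 and Slc6a13 at 0), 29.9 to 83.3 and 0.197 to 13.8 CPM. The oligodendrocyte precursor list (7 markers) was 67.4 to 71.8 CPM in CBX (Cspg4 and Gpr17 at 0), 28.7 to 69.6 in MB/HB and 4.15 to 33.3 in VISp mice (Gpr17 at 0 in both). The ependymal list (8 markers) was 88.4 to 89.2 CPM in CBX (Ccdc153 and Pifo at 0), 24.1 to 72.4 in MB/HB (Pifo at 0) and 12.5 to 68.7 in VISp. In MB/HB the endothelial list (8 markers) reached 1214 CPM and the mural list (8 markers) 1399 CPM, against at most 26.6 and 98.7 in VISp mice. The part of this RNA in the results was not tested, although some results are also given below without cells that carried such markers. Mice are the replicates, and each p-value measures the spread between these mice only.

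Among astrocyte-like cells, the Irx genes were read in CBX and MB/HB and were at or near 0 in VISp. Irx5 averaged 35.6 and 57.1 CPM in the 2 CBX mice (MouseID-614198 and MouseID-651221, in this order throughout). It averaged 24.7, 12.4, 37.2 and 37.2 CPM in the 4 MB/HB mice (MouseID-615516, MouseID-651222, MouseID-651228 and MouseID-651229, in this order throughout). All 19 VISp mice were listed at 0, so no CBX or MB/HB mouse overlapped with VISp, while the CBX and MB/HB ranges overlapped. Irx3, which lies in the same cluster as Irx5 and shares many of its developmental territories, averaged 9.64 and 4.03 CPM in CBX and 11.4, 6.68, 21.7 and 21.9 CPM in MB/HB. In VISp, 18 of 19 mice were at 0 for Irx3 and the other had 1.27 CPM, from a single cell. Every CBX and MB/HB mouse was thus above every VISp mouse for Irx3.

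The members of the other Irx cluster were less even. Irx2 averaged 16.3 and 12.1 CPM in CBX and 1.02, 0, 7.51 and 10.4 CPM in MB/HB, with a highest VISp mouse of 0.05 CPM. Both CBX mice were above all MB/HB mice for Irx2, and MB/HB MouseID-651222 had no read of it in its 32 astrocyte-like cells. Irx1 averaged 6.65 and 5.10 CPM in CBX and 10.2, 0, 4.55 and 0.58 CPM in MB/HB, where its highest mouse was above CBX and its lowest was at 0. The highest VISp mouse had 0.09 CPM of Irx1, and 18 of 19 were at 0 for Irx1 and for Irx2 alike.

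Zic1 and Zic4, which act in cerebellar growth, were high in CBX, far lower in MB/HB and mostly at 0 in VISp. Zic4 averaged 127.1 and 135.3 CPM in CBX and 14.7, 2.61, 0.03 and 4.62 CPM in MB/HB, and in VISp 13 of 19 mice were at 0 with a highest value of 1.64 CPM. Zic1 averaged 66.8 and 62.8 CPM in CBX and 13.7, 12.1, 1.21 and 0.49 CPM in MB/HB. Some MB/HB means rested on 1 cell. Zic1 was read in 3 of 32 cells of MouseID-651222, 1 of them at 369 CPM. Zic4 was read in 2 of 36 cells of MouseID-651229, 1 of them at 164 CPM. In VISp, 16 of 19 mice were at 0 for Zic1 and the highest had 1.94 CPM. The CBX mice stood above all other mice for both genes, and the MB/HB values spanned the range from the VISp level to 14.7 CPM.

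Zic5 had another pattern, high in CBX and in VISp and low in MB/HB. It averaged 45.1 and 59.1 CPM in CBX and 9.18, 0.67, 2.06 and 0.26 CPM in MB/HB. The 19 VISp mice ran from 8.51 through a median of 35.3 to 64.03 CPM (mean 34.6 ± 17.1, SD, n = 19). The CBX mice lay inside the VISp range, and 3 of 4 MB/HB mice lay below all VISp mice, with MouseID-615516 just above the lowest. Its divergent neighbour Zic2 was low everywhere: 0.67 and 2.35 CPM in CBX, 0.17, 0.10, 0 and 0 CPM in MB/HB, and from 0 through a median of 1.95 to 7.94 CPM in VISp, where 18 of 19 mice had some.

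En2 was seen in both CBX mice, at 14.2 and 19.1 CPM, and in 1 MB/HB mouse, MouseID-615516, at 11.8 CPM, with the other 3 at 0. In VISp, 15 of 19 mice were at 0 for En2 and the highest had 0.32 CPM. En1 was lower: 1.18 and 0.38 CPM in CBX, 7.44, 0, 0.53 and 0 CPM in MB/HB, and 0 in all 19 VISp mice. MouseID-615516 was the highest MB/HB mouse for 7 of the 10 members: Irx1, the 4 Zic genes and both En genes.

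**Figure D1:**
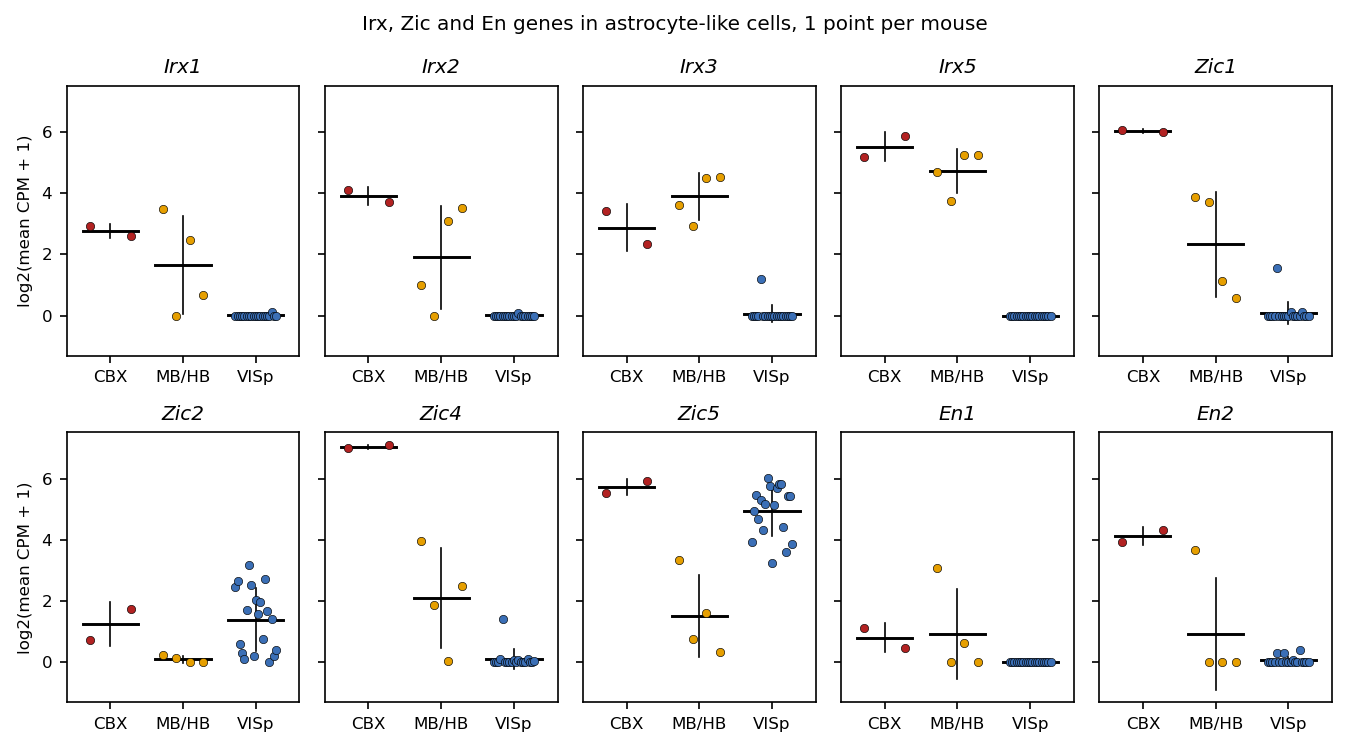
Level of each of the 10 genes in astrocyte-like cells as log2(mean CPM + 1), with 1 point per mouse, the mean as a line and the SD as a bar, for 2 CBX, 4 MB/HB and 19 VISp mice. Irx5 and En1 are at 0 in all 19 VISp mice, Zic1 and Zic4 are highest in the 2 CBX mice, and Zic5 is high in CBX and VISp and low in MB/HB.

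These levels were compared with limma on log2(mean CPM + 1) per mouse, in 1 fit over 25 mice and 4762 genes with Benjamini-Hochberg adjustment. A difference is on that log2 scale, and where VISp was listed at 0 its size depends on the pseudocount of 1 and no fold is given. All 10 members passed the filter of 1 CPM in at least 2 mice. All but Zic2 and Zic5 passed through CBX or MB/HB mice, with 1 VISp mouse beside them for Irx3, Zic1 and Zic4, so the counts below are descriptions. In CBX against VISp, 7 of the 10 were higher and none lower (Irx1, Irx2, Irx3, Irx5, Zic1, Zic4 and En2), where 11.6% of all genes tested changed, 5.71% of them higher and 5.9% lower. The CBX and VISp mice did not overlap for 8 of the 10, where 12.5% of all genes tested did not. The median difference of the 10 was 3.36, against -0.09 over all genes tested. With only 2 CBX mice, leaving out 1 of them cut the number of genes called in this comparison from 553 to 312 (without MouseID-614198) or 259 (without MouseID-651221).

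Zic4 had the highest of these differences, 6.95 (SE 0.54, adjusted p = 2.45e-11 by limma). Zic1 followed at 5.95 (SE 0.56, adjusted p = 1.53e-09), and Irx5 at 5.53 (SE 0.42, adjusted p = 1.31e-11). En2 was higher by 4.07 (SE 0.51), Irx2 by 3.90 (SE 0.49), Irx3 by 2.81 (SE 0.42) and Irx1 by 2.77 (SE 0.46), with adjusted p-values from 3.34e-07 to 4.31e-05. Irx5, Zic1, Zic4 and En2 passed the threshold under every alternative in which they could be tested. Zic5 differed by 0.76 (SE 0.66, adjusted p = 0.61), Zic2 by -0.15 (SE 0.71, adjusted p = 0.94) and En1 by 0.79 (SE 0.42, adjusted p = 0.28), and a p above the threshold does not show that the levels were alike.

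In MB/HB against VISp, 7 members were higher and 1 lower, where 12.1% of all genes tested changed, 5.63% higher and 6.43% lower. Irx5 was higher by 4.73 (SE 0.31, adjusted p = 4.80e-13 by limma) and Irx3 by 3.84 (SE 0.31, adjusted p = 6.47e-11), and both held under all alternatives. Zic5 was the member that fell, by 3.45 (SE 0.49, adjusted p = 3.84e-06). Zic1 rose by 2.23 (SE 0.42), Zic4 by 1.99 (SE 0.40), Irx2 by 1.90 (SE 0.36) and Irx1 by 1.65 (SE 0.34), with adjusted p-values between 2.15e-04 and 8.28e-04, although at least 1 of the 4 MB/HB mice was within the VISp range for each. Without 6 cells of MouseID-615516 that clustered with CBX cells, an alternative chosen after seeing the data, Zic1 was higher by 1.26 (limma adjusted p = 0.0311) and Zic4 by 1.001 (adjusted p = 0.0565), which ended the Zic4 call. In that fit most of the Zic1 level of MouseID-651222 still came from 1 cell at 369 CPM. Only Irx3 and Irx5, 2 of the 10, had no overlap between MB/HB and VISp mice, where 3.59% of all genes tested had none. En1 was higher by 0.92 (SE 0.31, adjusted p = 0.0456), with 2 of 4 MB/HB mice at 0, and this call was lost in 6 of 19 alternatives (adjusted p 0.0511 to 0.0788). Zic2 differed by -1.30 (SE 0.53, adjusted p = 0.12) and En2 by 0.86 (SE 0.38, adjusted p = 0.16). The 2 MB/HB vectors did not carry the same calls: with eHGT_381h mice alone Irx2 gave an adjusted p of 0.28, and with MGT_E160m mice alone Zic1 and Zic4 gave 0.22 and 0.10.

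Between the 2 non-cortical tissues, 5 members were higher in CBX and none lower, where 8.59% of all genes tested changed, 3.93% higher and 4.66% lower. Zic4 differed most, by 4.96 (SE 0.63, adjusted p = 1.05e-06 by limma), followed by Zic5 at 4.21 (SE 0.76, adjusted p = 2.43e-04), Zic1 at 3.71 (SE 0.65, adjusted p = 1.64e-04) and En2 at 3.21 (SE 0.60, adjusted p = 3.51e-04). Irx2 was higher by 2.005 (SE 0.57, adjusted p = 0.0215), a call that 8 of 24 alternatives lost. Irx5 (0.79, SE 0.49), Irx1 (1.12, SE 0.54), Irx3 (-1.03, SE 0.49), Zic2 (1.15, SE 0.83) and En1 (-0.13, SE 0.48) had adjusted p-values from 0.24 to 0.94. CBX and MB/HB mice did not overlap for 6 of the 10, where 26.5% of all genes tested did not. The number of genes called fell from 409 to 227 without CBX MouseID-614198 and to 177 without MouseID-651221. Identifier prefixes of the cells split the mice into runs of names: in AB-S40303 to AB-S40305 alone 7, 7 and 1 of the 10 members were called in the 3 comparisons in this order, and in AB-S40318 to AB-S40321 alone 3, 3 and 2 of the 8 that could be tested, each with 1 CBX mouse.

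**Figure D2:**
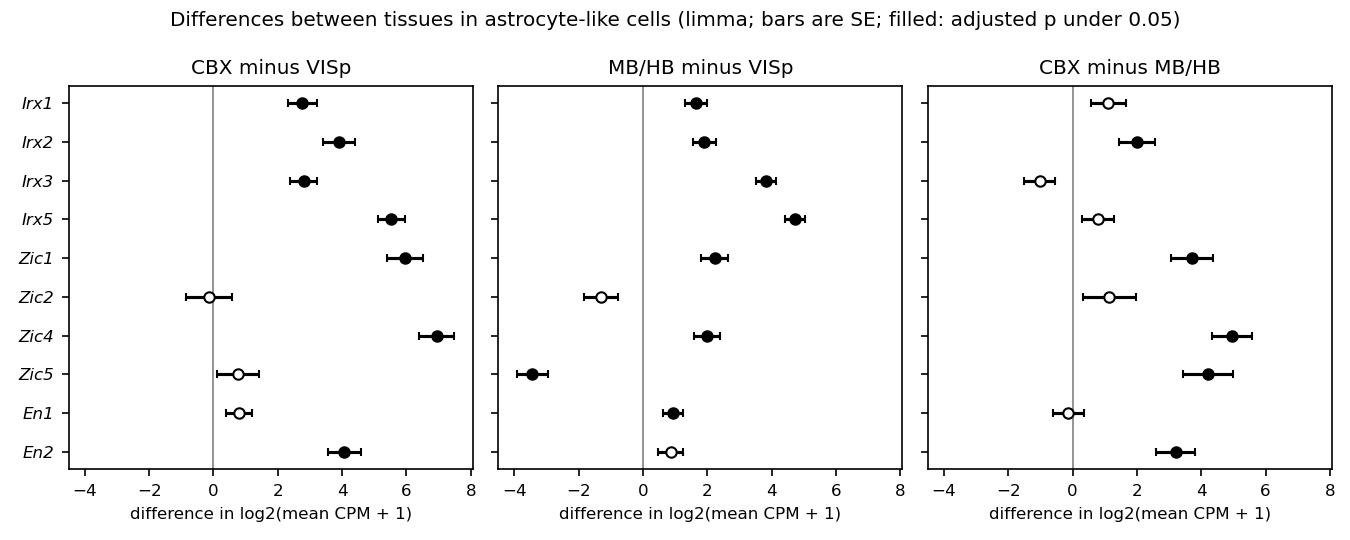
Difference in log2(mean CPM + 1) between tissues for the 10 genes, with its SE as a bar, in the 3 comparisons of astrocyte-like cells, filled where the limma adjusted p is under 0.05. Zic5 is the only filled point below 0, in MB/HB minus VISp, and Zic4 is the point farthest to the right in both comparisons that involve CBX.

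Counted by cell, the members were patchy within a tissue. A read of Zic4 was found in 68 of 81 CBX cells (83.95%), of Zic1 in 66 (81.5%), of Zic5 in 54 (66.7%) and of Irx5 in 49 (60.5%). Irx1 (33.3%), Irx2 (32.1%), En2 (29.6%) and Irx3 (27.2%) were each read in about 30% of CBX cells, Zic2 in 13 cells (16.05%) and En1 in 4 (4.94%). In MB/HB the most common members were Irx5, in 45 of 148 cells (30.4%), and Irx3, in 38 (25.7%). Zic5 was read in 26 MB/HB cells, of which 19 had exactly 1 read. VISp cells showed Zic5 in 331 of 739 (44.8%), 193 of them with at least 5 reads, and Zic2 in 44 (5.95%). Irx5 and En1 were in 0 of 739 VISp cells, which allows a share of cells with a read of up to 0.406% (counting error only), and the other 6 members were in 1 to 6 VISp cells each.

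**Figure D3:**
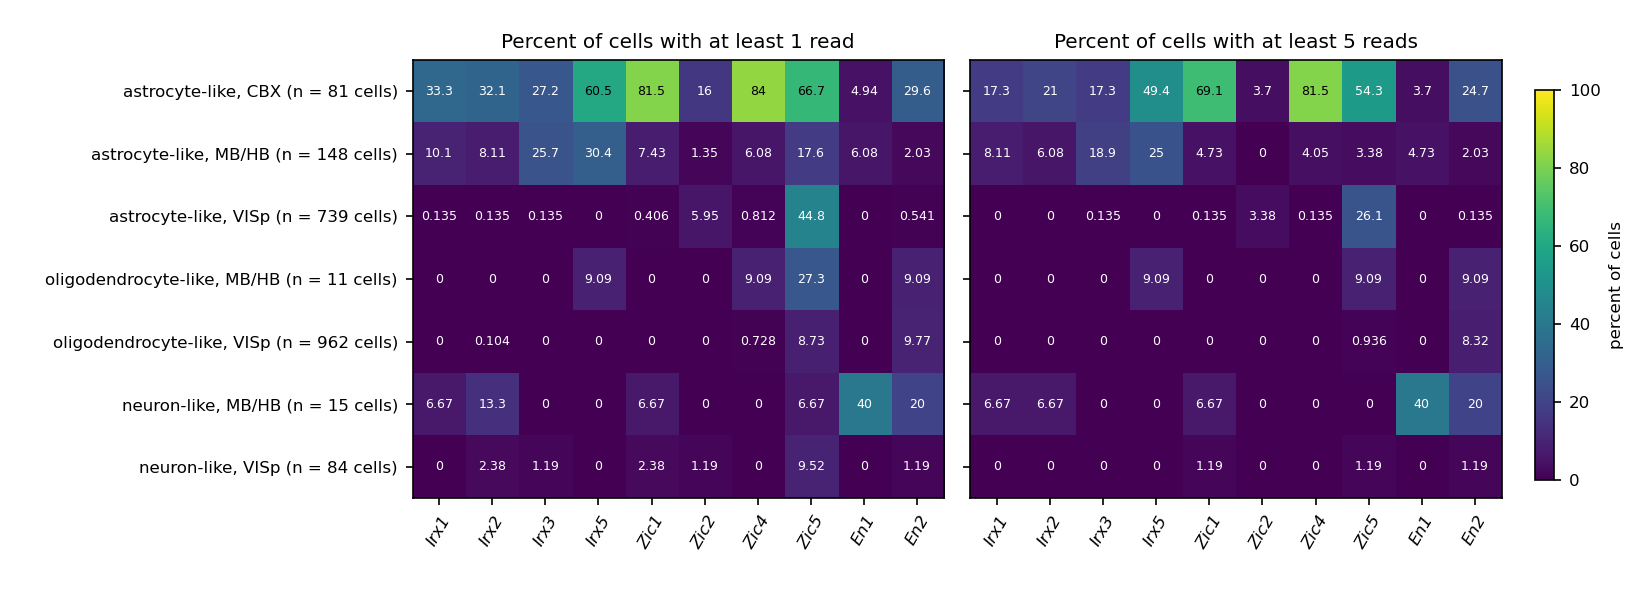
Percent of cells in each class and tissue with a read of each member, at 2 read minimums (1 read and 5 reads), as a colour scale from 0 with the number of cells beside each row. At 1 read, the CBX astrocyte-like row is brightest for Zic4 (83.95%) and Zic1 (81.5%), and the VISp astrocyte-like row is brightest for Zic5 (44.8%).

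Single CBX cells combined the families. The median CBX cell held reads of 4 members and the highest held 7, and 73 of 81 cells (90.1%) held at least 3. Zic1 or Zic4 was read in 78 cells, any Irx gene in 71 and either En gene in 26, and 22 cells held all 3 families. Zic1 and Zic4 were read together in 56 cells, Irx5 with Zic1 in 44, and an Irx gene with Zic1 or Zic4 in 70. With members read in so many of the 81 cells, frequent shared cells follow from the single shares alone. An excess over these shares was not tested. Across the cells of 1 mouse, the levels of Zic1 and Zic4 did not move together closely (Pearson's r of -0.08 in MouseID-614198 and 0.20 in MouseID-651221, a description over cells that share library depth).

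MB/HB cells were mostly single-family. The median cell held 1 member, 46 of 148 (31.1%) held none, and 15 (10.1%) held at least 3. The median number of genes detected was 5323 in CBX, 3938.5 in MB/HB and 4326 in VISp astrocyte-like cells. Among MB/HB mice, MouseID-651222 had 2733.5. Median reads per cell ran the other way, at 375425 in CBX, 410437 in MB/HB and 431572 in VISp. The part of these differences in the member counts was not tested. An Irx gene was read in 82 cells, Zic1 or Zic4 in 15 and an En gene in 11, and 1 cell held all 3 families. Zic1 and Zic4 occurred together in 5 cells, 4 of them from MouseID-615516, and Irx3 and Irx5 in 15. In VISp, 382 of 739 cells (51.7%) held no member and a single cell held at least 3. That cell, from MouseID-614200 and in the VISp cluster 4, had 65.96 CPM of Zic1, 55.8 of Zic4, 43.1 of Irx3, 38.1 of Zic5, 7.61 of En2 and 2.54 of Zic2, and it was picked out after its values were seen.

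**Figure D4:**
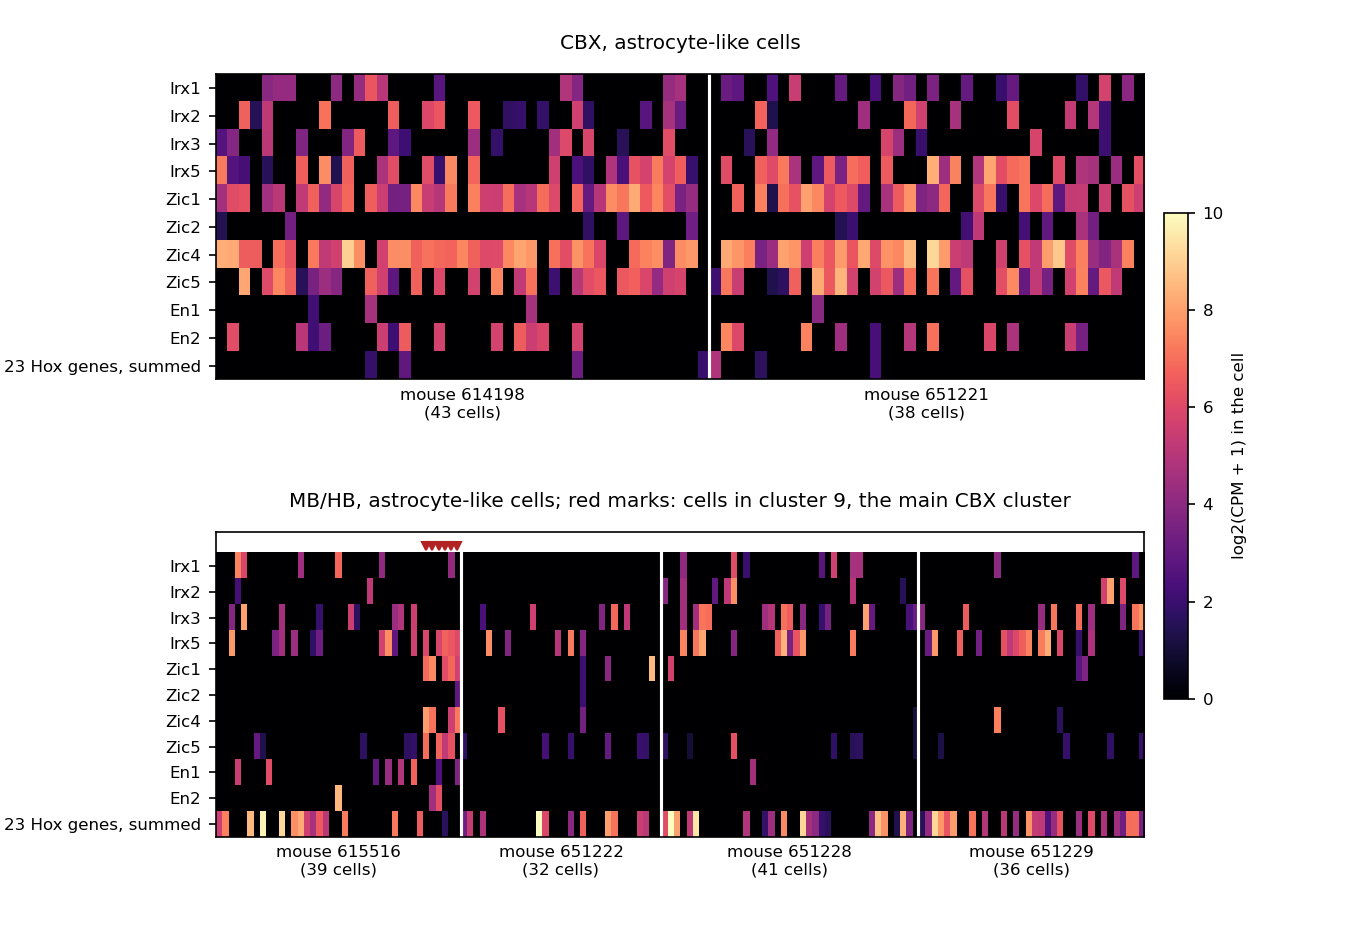
Level of the 10 members and of the 23 Hox genes summed, as log2(CPM + 1), in each CBX and MB/HB astrocyte-like cell (1 column per cell, cells grouped by mouse), with marks over the 6 MB/HB cells in cluster 9. Zic1 and Zic4 fill most CBX columns, MB/HB columns mostly show Irx or Hox reads, and the marked cells carry the Zic1 and Zic4 reads of MouseID-615516.

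The Zic1 and Zic4 reads of MB/HB MouseID-615516 sat in 6 cells that clustered with the CBX cells. These 6 were the only MB/HB cells in cluster 9, which holds 79 CBX cells and no VISp cell, and the clustering did not use the members. Zic1 was read in 5 of the 6 (mean 89.2 CPM), Zic4 in 4 (95.3 CPM), Zic5 in 4 (57.1 CPM), Irx5 in 5 (60.5 CPM) and En2 in 2 (15.7 CPM). Their levels of the 3 Zic genes were thus near those of the CBX mice. In the other 33 astrocyte-like cells of that mouse Zic1 and Zic4 were in 0 cells, and Zic5 averaged 0.48 CPM. Gdf10, a growth factor gene that marks Bergmann glia, was read in all 6 at a mean of 2938 CPM, Hoxb3 in none and any Hox gene in 1.

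Engrailed and Hox reads were not seen in the same MB/HB astrocyte-like cell. Of 11 cells with En1 or En2, 0 had a read of any of the 23 Hox genes, which allows a share of up to 27.3% (counting error only), while 70 of the 137 cells without En (51.1%) had one. Within MouseID-615516, which gave 10 of the 11, the values were 0 of 10 and 15 of 29 (51.7%). Of the 11, 3 were among the 6 cells of cluster 9, where a Hox read was in 1 of 6. In CBX, En and Hox reads did occur together at a minimum of 1 read: 4 of 26 cells with an En gene (15.4%) and 3 of 55 without (5.45%) had a Hox read. At a minimum of 5 reads for both, the CBX values were 0 of 22 and 1 of 59. The MB/HB values at 5 reads were 0 of 10 and 59 of 138. For the Irx genes in MB/HB, 39 of 82 cells with one (47.6%) and 31 of 66 without (47.0%) had a Hox read, and at a minimum of 5 reads for both the shares were 33.3% and 45.6%. Within MouseID-615516 a Hox read was in 7 of 23 Irx cells (30.4%) and in 8 of 16 others (50%), and at 5 reads in 4 of 20 (20%) and 10 of 19 (52.6%). Zic1 or Zic4 cells had a Hox read in 6 of 15, against 64 of 133 others (48.1%), and at 5 reads in 1 of 9 (11.1%) against 58 of 139 (41.7%). Otx2, a midbrain and forebrain factor, was read in 2 of the 11 En cells and in 4 of the 137 others. These counts were drawn up after the values were seen, come largely from 1 mouse and carry no test.

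Reads from neighbouring cell types were set beside the CBX signal, because cerebellar granule neurons and meningeal cells are known to express Zic genes. The granule neuron list (9 markers) summed to 80.4 to 245.3 CPM in CBX, 24.7 to 245.9 in MB/HB (Cbln1 and Cbln3 at 0) and 12.3 to 210 in VISp mice. CBX cells with no read of Gabra6, Cbln3, Neurod1 and Fat2, 13 and 33 cells of the 2 mice, had Zic1 in 84.6% and 75.8% and Zic4 in 84.6% and 84.8%. In CBX cells with no read of the meningeal list, 18 and 21 cells, Zic1 was read in 83.3% and 71.4% and Zic4 in 77.8% and 80.95%. These shares lay near those over all CBX cells, 81.5% for Zic1 and 83.95% for Zic4. Zic5 was less even. In MouseID-614198 it was read in 5 of 13 cells without the 4 granule markers (38.5%) and in 22 of 30 with one (73.3%). In MouseID-651221 these values were 23 of 33 (69.7%) and 4 of 5 (80%). For the meningeal list, Zic5 was read in 50% of cells without and 72% with a marker in MouseID-614198, and in 76.2% and 64.7% in MouseID-651221. En2 was read in 2 of 13 granule-marker-free cells (15.4%) and 11 of 30 others (36.7%) in MouseID-614198. In MouseID-651221 it was read in 10 of 33 (30.3%) and 1 of 5 (20%). For Zic5 and En2 the shares thus differed in opposite directions between the mice in at least 1 of these splits. For En2 this rests on a group of 5 cells with 1 positive cell. The part of these cell types in the result was not tested. The oligodendrocyte list was higher in CBX than in VISp astrocyte-like cells, and its part in the En2 result was not tested. Without the cells that carried most markers of another type, En2 was higher in CBX than in VISp by 4.09 (limma adjusted p = 6.58e-07), against 4.07 with them. Only 3 of 81 CBX and 24 of 739 VISp cells were left out in this way. The alternative therefore cannot show the part of RNA spread thinly over the remaining cells.

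Oligodendrocyte-like cells of VISp kept 1 member of the set at a visible level, En2. It was read in 94 of 962 cells (9.77%), 80 of them with at least 5 reads, and the 22 mice ran from 0 through a median of 6.43 to 20.2 CPM, with 2 mice at 0. By cluster, En2 was read in 8.70%, 13.1%, 10.7% and 3.54% of cells of oligodendrocyte-like clusters 2, 3, 6 and 7. Zic5 was read in 84 cells (8.73%), 67 of them with exactly 1 read, and its mice ran from 0 to 4.09 CPM, below the lowest VISp astrocyte-like mouse at 8.51. Irx1, Irx3, Irx5, Zic1, Zic2 and En1 were in 0 of 962 cells, Irx2 in 1 and Zic4 in 7. No VISp vector gave both 10 astrocyte-like and 10 oligodendrocyte-like cells in a mouse, so class and vector cannot be told apart here, and the classes were not tested against each other.

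**Figure D5:**
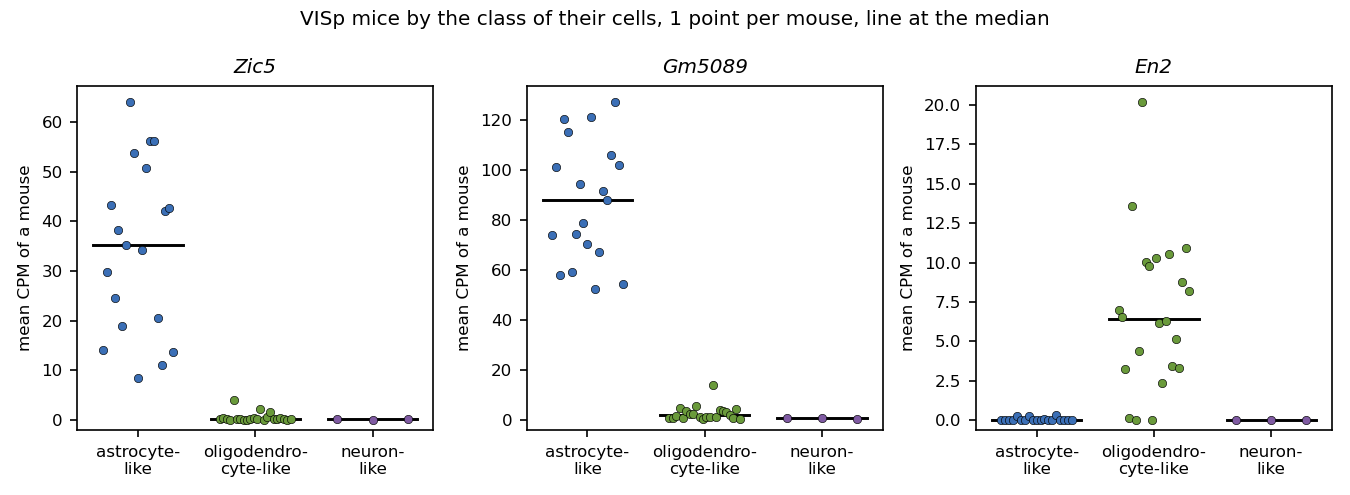
Mean CPM per mouse in VISp astrocyte-like, oligodendrocyte-like and neuron-like cells, with 1 point per mouse of at least 10 such cells and a line at the median. Zic5 is high in astrocyte-like mice (8.51 to 64.03 CPM) and at most 4.09 CPM in oligodendrocyte-like mice, and En2 reaches 20.2 CPM in oligodendrocyte-like mice.

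The 11 oligodendrocyte-like cells of MB/HB gave Zic5 in 3 and Irx5, Zic4 and En2 in 1 each. The 15 neuron-like MB/HB cells had En1 in 6 (40%) and En2 in 3 (20%), the highest En1 share of any class and tissue. In MouseID-651222, which gave 12 of these neurons, En1 averaged 21.3 and En2 6.55 CPM, while the astrocyte-like cells of the same mouse were at 0 for both. Irx3 and Irx5, the most common members in MB/HB astrocyte-like cells, were in 0 of the 15 neurons, which allows a share of up to 20%. Of 84 neuron-like VISp cells, 8 (9.52%) had a read of Zic5, and no other member was in more than 2.

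Transcripts beside the members followed them in part. Crnde, a non-coding RNA divergent from Irx5 with 1504 bases between the genes, averaged 46.8 and 38.96 CPM in CBX, 38.3, 39.02, 27.3 and 15.9 CPM in MB/HB and 0 in all 19 VISp astrocyte-like mice. By tissue, the pattern is that of Irx5 in astrocyte-like cells but not in VISp oligodendrocyte-like cells, where Irx5 was at 0 and Crnde ran from 0.47 to 28.97 CPM. Within MB/HB, Crnde was lowest in MouseID-651228 and MouseID-651229, where Irx5 was highest (37.2 CPM in each). Across the astrocyte-like cells of 1 mouse, Pearson's r of Irx5 with Crnde ran from -0.29 (MouseID-651229) to 0.17 (MouseID-651222), as a description. Gm5089, the next gene after Zic5 on the same strand, averaged 205.9 and 201.9 CPM in CBX, 25.1, 9.77, 9.34 and 7.73 CPM in MB/HB and 52.6 to 127.5 CPM (median 88.3) in VISp. Like Zic5 it was lower in MB/HB than in VISp, by 2.75 on the log2 scale (limma adjusted p = 1.10e-09), and unlike Zic5 it passed the threshold in CBX against VISp, at 1.27 (adjusted p = 0.0128). The Zic1 and Zic4 neighbours Gm28652 and Gm29478 were higher in CBX than in VISp by 4.24 and 4.88 (adjusted p = 3.25e-08 and 4.95e-06).

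Other regional regulators were counted from lists. Among 13 genes of the midbrain-hindbrain boundary, 9 were tested, and Pax3, a dorsal neural tube factor, was above its VISp level in both: by 6.29 in CBX (adjusted p = 3.26e-08 by limma), by 4.70 in MB/HB (adjusted p = 2.68e-08). Otx2 was higher in MB/HB than in VISp (1.76, limma adjusted p = 2.56e-03), with overlapping mice, and CBX against MB/HB gave an adjusted p of 0.13. Pax3 was read in 58 of 81 CBX cells, 20 of the 26 with an En gene and 38 of the 55 without.

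Hox genes were read mainly in MB/HB. Of 23 Hox genes 9 were tested, having passed the filter through MB/HB mice (with 1 VISp mouse beside them for Hoxd3), and 9 were higher in MB/HB than in VISp, 0 were called in CBX against VISp, and 7 were lower in CBX than in MB/HB. The filter favoured this direction, so the counts are descriptions. Hoxb3 differed by 4.18 from VISp (limma adjusted p = 4.69e-15), Hoxa5 by 3.50, Hoxa2 by 3.46 and Hoxb6 by 2.74. Of 11 telencephalic factors, 6 were lower in CBX than in VISp and none higher, and 8 were lower and 1 higher in MB/HB. Nr2e1, a nuclear receptor of the embryonic forebrain, was lower by 5.90 in CBX and by 5.90 in MB/HB. The one that rose in MB/HB was Nr2f2, by 3.40 (adjusted p = 1.64e-08).

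Relatives by protein class did not follow the members as a block. Of the 12 other TALE homeobox genes, Meis2 was lower in CBX than in VISp by 7.54 (limma adjusted p = 1.52e-18), while Tgif1 was higher by 3.29. In MB/HB against VISp, Meis1 was higher by 2.13 and Meis2 was lower by 1.20. Meis2 is a cofactor for many homeodomain proteins, and its CBX mice averaged 0.19 on the log2(CPM + 1) scale against 6.52 in MB/HB and 7.73 in VISp. Among the 6 Gli and Glis genes, zinc finger relatives of the Zic factors, 3 were lower in CBX than in VISp and none higher: Glis3 by 4.46, Gli3 by 1.96 and Gli2 by 1.78. Gli3 and Glis3 were also lower in MB/HB, by 1.36 and 1.54.

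Genes whose levels over the 25 mice were most like each member, by Pearson's r of log2(mean CPM + 1), were looked for among part of the genes tested. The 10 members, the genes of the lists and the transcripts beside the members, such as Crnde, were left out. A gene left out may have a higher r than those named. The mice form 3 tissue groups of unequal size, so r mainly follows the tissue means and is given as a description. En2 was closest to Cd70, a ligand of the TNF family (r = 0.99), Zic4 to Mybpc1 and Pdlim3 (0.97 each), and Zic1 to Syt10 (0.95). Irx3 and Irx5 shared their closest gene among those searched, the carbonic anhydrase Car13 (0.95 for both). Irx3 was also close to Hotairm1, an RNA of the Hoxa cluster (0.91). Irx1 was closest to Cacng5 (0.93), Irx2 to 1700047M11Rik (0.84), En1 to Bmp2 (0.86), Zic5 to Cbr3 (0.83) and Zic2 to Slc30a1 (0.69). Within the set, Zic1 with Zic4 and Irx3 with Irx5 reached 0.95, Zic4 with En2 0.93, Irx2 with Irx5 0.89 and Irx1 with Irx2 0.79, while Zic5 with Irx3 gave -0.63. Zic1 and Irx2 thus had a higher r with another member than with any of the genes searched.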

How the data were processed

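Each cell is 1 SMARTer v4 library. The values are CPM as deposited by the authors, whose submitters' processing notes name STAR and mm10; the STAR version and the counting are not given in the sources used here. Each cell summed to 1000000, and all 9484843 positive values over all gene columns were whole multiples of 1 read (within 0.001). Depth ran from 57873 to 1455022 reads per cell. Columns recorded as a score are deposited CPM too. Of 32245 gene columns, 5361 were read (184 from lists, 12 neighbours of members, 5165 drawn at random from 18605 genes detected in at least 20 cells), and 26884 were not used, so adjusted p-values refer to this panel.

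Cells were clustered on 2000 variable genes without 78 patterning genes (30 components, 15 neighbours, Leiden resolution 1; 10 clusters) with leidenalg 0.10.2. CPM was averaged per mouse with at least 10 cells of a class. Genes reaching 1 CPM in 2 mice or more went into limma 3.58.1 (R 4.3.3) on log2(mean CPM + 1), trended empirical Bayes, two-sided, Benjamini-Hochberg at 0.05, mice of all 3 tissues sharing 1 spread; the script was tested on simulated data. A fit with 1 CBX mouse assumes that it varies like the others. No doublet caller was run; cells with RNA of another type were left out in an alternative. Text names the members, list genes (lowest p, at most 4 per list), neighbours and the genes most like each member. Alternatives varied pseudocount, filter, cells, averaging, batches by identifier prefix, vectors and mice. A planned edgeR count model was not run, since the table holds CPM; limma on summed reads replaced it. Intervals were not printed; limits for a count of 0 use 3 counts. The members and lists were chosen with earlier results of these data known.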

Additional observations from a re-analysis of the deposited data

Results flagged for a closer look

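Among the 10 members in the 4 MB/HB mice, on the scale of log2(mean CPM + 1), the En2 level of MouseID-615516 (11.8 CPM) was marked as far from the others: its gap to the nearest mouse, divided by the range of all 4, was 1, above Dixon's 95% critical value for 4 samples. The other 3 mice were at 0, and with 3 tied values this ratio is 1 whatever the remaining value is, so the mark says nothing about the size of the En2 level. The rate of about 1 in 20 groups marked by chance does not hold for tied values, and 10 members were looked at. En1 was also highest in this mouse (7.44 CPM, against 0, 0.53 and 0) and was not marked on this scale. The En2 reads of this mouse came from 3 of its 39 astrocyte-like cells. Of these, 2 were among the 6 cells that clustered with CBX cells and had 21.96 and 72.49 CPM. The remaining cell, outside cluster 9, had 364.4 CPM and gave most of the mean. The 33 cells of this mouse outside cluster 9 averaged 11.04 CPM.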

How the results depend on the processing

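Of 702 log2 differences of members recomputed under alternatives, 650 kept their direction and side of the threshold, 32 lost it, 9 gained it and 11 changed sign, all of the last group without passing the threshold in the report. Averaging log2(CPM + 1) over cells gave 1156 genes called in CBX against VISp (990 higher, 166 lower, against 272 and 281 in the report) and 1214 in CBX against MB/HB (1056 higher, 158 lower, against 187 and 222), and it moved the median of all genes by 0.15 and 0.14; 8 members were then called in CBX against MB/HB. Leaving out 1 CBX or MB/HB mouse at a time gave 259 to 593 genes in CBX against VISp, 450 to 587 in MB/HB against VISp and 177 to 422 in CBX against MB/HB, and the lowest values for CBX came without CBX MouseID-651221. The mice of identifier prefixes AB-S40303 to AB-S40305 alone gave 176, 97 and 37 genes and, for the last comparison, 1 member. Those of AB-S40318 to AB-S40321 alone gave 203, 245 and 159 genes and 3, 3 and 2 members; both subsets hold fewer mice. MGT_E160m mice alone gave 5 members in MB/HB against VISp.

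Zic2 in CBX against VISp changed sign with a pseudocount of 0.1 (0.13), without cells carrying RNA of another type (0.038), with the mean of log2 values (0.20), without CBX MouseID-614198 (0.36; -0.65 without MouseID-651221) and in AB-S40318 to AB-S40321 (1.01). En2 in MB/HB against VISp was -0.056 both with MGT_E160m mice alone and without MouseID-615516. It was 1.17 without MouseID-651222, which was not the highest value over the alternatives. En1 in CBX against MB/HB was 0.74 with a pseudocount of 0.1, 0.20 without CBX MouseID-651221 (-0.44 without MB/HB MouseID-651222) and 0.048 on summed reads, and Irx1 there was -0.55 in AB-S40303 to AB-S40305. The cause was not tested. Irx2 in CBX against MB/HB gave an adjusted p of 0.20 and 0.10 without CBX MouseID-614198 or MouseID-651221. Zic5 in CBX against VISp passed the threshold only with the mean of log2 values (1.56, limma adjusted p = 5.93e-03), and En2 in MB/HB only with eHGT_381h mice alone (adjusted p = 0.0107) and in AB-S40303 to AB-S40305 (4.0e-03), where Zic5 lost its call (0.67). Of 150 shares of cells, 136 moved by less than the spread between mice. The edgeR model was not run. The summed-reads, prefix-run and main-CBX-cluster alternatives were chosen after seeing the data. No paired analysis was possible because each mouse number belongs to a single group. Depth limits what a 0 shows: a gene with few transcripts can be missed in a cell.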
